A study of Mus musculus with 6 samples.

Results

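Of the genes of cholesterol synthesis and its control, 7 were followed in mouse hematopoietic stem cells labelled wild type or Yy1 knockout: Srebf2, Insig1, Hmgcs1, Idi1, Fdps, Fdft1 and Sqle. They were taken by gene symbol from the deposited expression table, which holds all 7 among its 15553 genes. The cells were sorted from the bone marrow of C57BL/6 mice aged 6 to 8 weeks on absence of lineage markers and CD48 and presence of Sca1 and c-Kit. CD150 was used as well, but the protocol lists gates with and without it and the sample source lists only the former, so which gate each library holds is not settled. The 3 libraries labelled wild type came from mice of genotype Mx1-Cre, and the 3 labelled Yy1 knockout from Yy1f/f;Mx1-Cre mice, so both genotypes carried the Cre transgene. Mx1-Cre is driven by an interferon-inducible promoter that is also active outside blood cells, and the labels do not say how it was induced. The labels do not say whether each library came from its own mouse, so the p-values reflect spread among libraries, which may be technical.

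Cells make cholesterol from acetyl-CoA through mevalonate, isoprenoids and squalene. The pathway is governed by SREBP2, the product of Srebf2, a transcription factor held in the endoplasmic reticulum membrane. When sterols are plentiful, INSIG proteins keep SREBP2 and its escort SCAP there. When sterols are scarce, SREBP2 travels to the Golgi, is cut by 2 proteases and enters the nucleus, where it binds sterol regulatory elements in the promoters of the synthesis genes and of Insig1 and Srebf2 themselves. YY1, a zinc-finger factor, is known to bind and repress some sterol-regulated promoters in other cells. Oxysterols, made from cholesterol, activate the LXR receptors, which turn on cholesterol export.

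RefSeq promoter sequence (GRCm38.p6, the assembly behind mm10) was at hand for 4 of the 7 genes, and the windows ran from 250 bases before to 50 bases after the RefSeq start. They were searched on both strands for the sterol element core TCACNCCA, the shorter CACCCCA, which overlaps it when N is C, the NF-Y box CCAAT and the YY1 core CCATNTT. The stretches printed here end before the first base of the gene in RefSeq or GENCODE M21, whichever comes first, and are shown because the sterol element and its NF-Y neighbour are the letters by which SREBP2 targets are known. All 4 lie on the plus strand and read 5′ to 3′, with every match in capitals.
Hmgcs1 (chr13:119690101-119690350): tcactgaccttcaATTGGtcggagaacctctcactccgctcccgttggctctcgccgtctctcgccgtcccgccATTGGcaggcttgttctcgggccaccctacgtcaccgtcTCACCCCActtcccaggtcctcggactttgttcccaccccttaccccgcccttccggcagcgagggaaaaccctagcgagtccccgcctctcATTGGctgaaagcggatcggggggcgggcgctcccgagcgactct
Srebf2 (chr15:82147019-82147180): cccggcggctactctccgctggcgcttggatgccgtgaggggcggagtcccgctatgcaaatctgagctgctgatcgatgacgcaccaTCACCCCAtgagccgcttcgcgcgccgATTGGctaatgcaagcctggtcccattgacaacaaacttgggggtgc
Insig1 (chr5:28071162-28071362): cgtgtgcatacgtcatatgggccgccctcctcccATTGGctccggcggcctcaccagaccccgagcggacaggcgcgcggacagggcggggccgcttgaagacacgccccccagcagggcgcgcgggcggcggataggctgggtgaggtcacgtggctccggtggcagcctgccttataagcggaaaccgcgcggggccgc
Idi1 (chr13:8885356-8885500): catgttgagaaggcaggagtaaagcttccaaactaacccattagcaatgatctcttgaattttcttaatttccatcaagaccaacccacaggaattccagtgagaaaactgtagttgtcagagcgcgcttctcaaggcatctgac
The windows of Hmgcs1 and Srebf2 each held 1 sterol element core, in both cases written TCACCCCA. Of all 32817 promoter windows, 4.36% hold TCACNCCA. The shorter CACCCCA matched inside it in both and is found in 7.62% of all windows. NF-Y boxes, which read ATTGG on the printed strand, numbered 4 at Hmgcs1, 1 at Srebf2, 1 at Insig1 and 2 at Idi1, with 1 of the Hmgcs1 boxes and both Idi1 boxes downstream of the printed stretches. A CCAAT box is found in 37.4% of all windows. The YY1 core had 1 match, on the minus strand at the RefSeq start of Srebf2 and downstream of its printed stretch, and 16.1% of all windows hold one. A match describes letters only, and a window without one does not show that the factor is absent.

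Levels are given in RPKM, reads scaled to gene length and library size, so that genes can be compared per length. Reads recovered from these values numbered 15102982 to 21757039 per library. The same values imply smaller library sizes, of 12920189 to 19535460, so the recovered totals are estimates that run too high. Intervals on reads were not computed because the library kit amplifies RNA before sequencing. The targeted gene did not separate the genotypes. Yy1 stood at 31.6, 42.3 and 52.1 RPKM in wild type replicates 1 to 3 and at 36.2, 16.6 and 28.5 RPKM in knockout replicates 1 to 3, so the library labelled knockout replicate 1 lay inside the wild-type range. Its mean was lower in knockout, at 27.1 against 42.0 RPKM (log2 fold change -0.66, limma adjusted p = 0.680). The authors' deposited table lists -0.68 (adjusted p = 0.586). Libraries are called wild type or knockout by their labels throughout. Wild type replicate 3 stood apart on the first principal component over all tested genes, with a score of 114.1 against -26.67 to -18.41 in the other 5 libraries. Stem cell markers were present in every library (Kit and Hlf at 76.6 to 144 RPKM). Their summed level over 8 genes was 479 to 545 RPKM in wild type against 323 to 360 RPKM in knockout. Of other cell types, Lyz2, S100a9, Hbb-bt, Cd79b, Prtn3, Pecam1 and Nkg7 were detected in all 6 libraries, Elane was listed at 0 in 4, and Csf1r, Cd3e and Klf1 were not listed. The summed level of the 5 megakaryocyte genes was 19.5 to 35.9 RPKM in wild type against 50.9 to 101 RPKM in knockout, and that of 12 G2/M and mitosis genes 126 to 199 RPKM and 440 to 447 RPKM. Cd68, the other monocyte and macrophage gene in the table, stood at 0.0616, 2.72 and 0 RPKM in wild type against 2.06, 5.82 and 9.49 RPKM in knockout, with overlap (log2 fold change 2.49, unadjusted p = 0.0257 in limma), while Lyz2 stood at 80.0 to 121 against 66.9 to 95.2 RPKM. The stem cell, megakaryocyte and mitosis lists and Cd68 moved with genotype, and their part in the differences described here was not tested. In bulk samples, fewer cells of a type and less RNA per cell cannot be told apart.

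None of the 6 genes that could be tested passed the test between genotypes. The test was limma on log2(RPKM + 0.5) with Benjamini-Hochberg adjustment over the 13179 genes that reached 1 RPKM in 3 or more libraries, called at an adjusted p under 0.05. In that fit 0 of the 13179 genes were called (0%), and so were 0 of the 6 members tested. Without adjustment, 1027 genes (7.79%) had a p under 0.05, 4.73% of those tested being higher in knockout, and Idi1 was the 1 member among them. With limma-voom on recovered reads 6 of 13114 genes (0.0458%) were called, while the authors' deposited table calls 24 of 15553 genes (0.154%), with no member in either set. Fdps, the remaining gene, reached 1 RPKM in 2 libraries and was not tested.

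**Figure D1:**
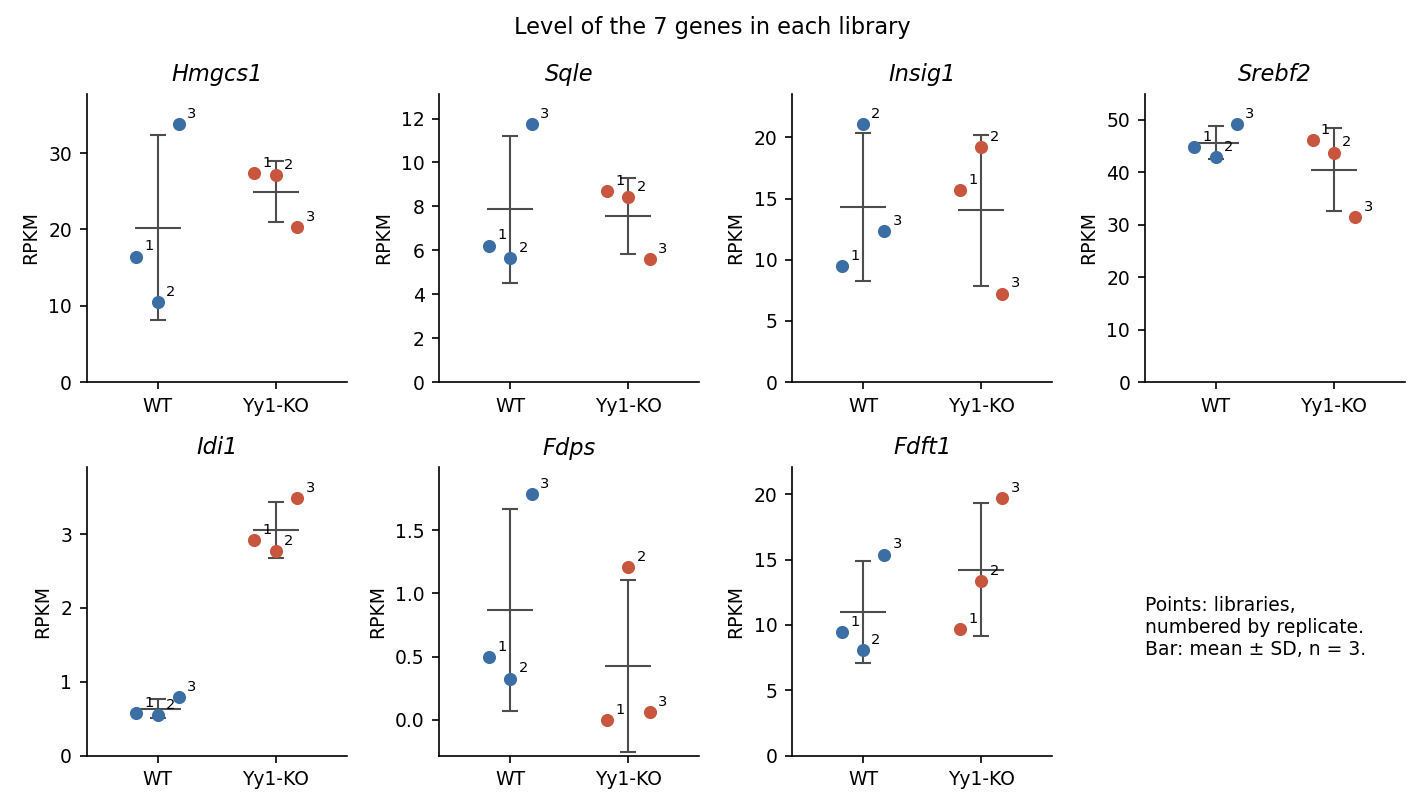
RPKM of each of the 7 genes (vertical axes, each with its own scale) in the 3 wild-type (blue) and 3 Yy1 knockout (red) libraries, numbered by replicate, with the mean and SD of each genotype. The knockout points of Idi1 lie between 2.77 and 3.49 RPKM, above all wild-type points, and the genotypes overlap at the other 6 genes.

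Srebf2, the gene of the master regulator, had the highest level of the 7 and the steadiest. It measured 44.9, 42.9 and 49.1 RPKM in wild type against 46.2, 43.8 and 31.5 RPKM in knockout. Only knockout replicate 3 lay below the wild-type range, and the highest library was 1.56 times the lowest. Knockout minus wild type on the log2 scale, the log2 fold change, was -0.19 (standard error 0.20, limma adjusted p = 0.856), with a 95% interval from -0.66 to 0.28. Srebf2 (ENSMUSG00000022463, chromosome 15, 82147181 to 82205379, plus strand, 19 exon blocks, GENCODE M21 on GRCm38) hosts the microRNA gene Mir33 and overlaps the same-strand model Gm49502, neither of which is listed in the table.

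Insig1, the gene of a brake that holds SREBP2 back when sterols are plentiful, is itself an SREBP2 target. It varied more between libraries, with a highest value 2.91 times the lowest. It measured 9.48, 21.1 and 12.3 RPKM in wild type against 15.7, 19.2 and 7.23 RPKM in knockout. The highest library was wild type replicate 2 and the lowest knockout replicate 3, so the ranges overlapped almost fully. The log2 fold change was -0.056 (standard error 0.44, limma adjusted p = 0.985) and its 95% interval ran from -1.08 to 0.96. Leaving out wild type replicate 2 turned it to 0.25, and leaving out knockout replicate 3 to 0.35. Insig1 (ENSMUSG00000045294) lies on chromosome 5 at 28071363 to 28078662.

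Hmgcs1 encodes the cytosolic HMG-CoA synthase, an early enzyme of the mevalonate part of the pathway. It measured 16.4, 10.5 and 33.8 RPKM in wild type against 27.4, 27.1 and 20.3 RPKM in knockout. Wild type replicate 3 was the highest of all 6 libraries, while the other 2 wild-type libraries lay below every knockout library. Wild type averaged 20.2 ± 12.1 RPKM and knockout 24.93 ± 3.998 RPKM (SD, n = 3 libraries, as in all later means). The log2 fold change was 0.44 (standard error 0.41, limma adjusted p = 0.826, 95% interval -0.50 to 1.39). It was 0.89 without wild type replicate 3 (limma adjusted p = 0.501) and 0.065 without wild type replicate 2. Hmgcs1 (ENSMUSG00000093930, chromosome 13, 119690379 to 119708260) overlaps the antisense model Gm48342, and no source says whether the counting used strand.

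Idi1, which encodes isopentenyl diphosphate isomerase, was the only member whose genotypes did not overlap. It stood at 0.574, 0.549 and 0.791 RPKM in wild type, from 26, 31 and 41 reads, and at 2.92, 2.77 and 3.49 RPKM in knockout, from 178, 170 and 239 reads. Every knockout library was more than 3 times the highest wild-type library. The mean was 4.80 times higher in knockout, 3.06 ± 0.380 against 0.638 ± 0.133 RPKM. The pseudocount of 0.5 RPKM shrinks differences at such low levels, and the fitted log2 fold change was 1.65 (standard error 0.53, unadjusted p = 0.0151, limma adjusted p = 0.559). In limma-voom on recovered reads it was 2.32 (adjusted p = 0.636). In the authors' deposited table Idi1 has a log2 ratio of 2.26 (unadjusted p = 0.081, adjusted p = 0.666). The unadjusted p of Idi1 was also not under 0.05 in limma-voom, nor in limma without knockout replicate 3. All knockout libraries and no wild-type library reached 1 RPKM, so Idi1 entered the test only through the group in which it was high. Over all genes tested, 7.63% were higher in knockout without overlap and 6.87% lower.

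Idi1 has a near-identical processed pseudogene, which was chosen for a closer description after the values were seen. The gene (ENSMUSG00000058258, chromosome 13, 8885501 to 8892451) shared 25.3% of the 50-base words of its GENCODE M21 transcripts with transcripts of other genes, 17.7% with the pseudogene Gm13502 on chromosome 2 alone, and it overlaps the antisense model Gm48574. Gm13502 was listed at 3.73, 18.0 and 17.1 RPKM in wild type against 18.8, 27.8 and 47.2 RPKM in knockout. It too was higher in every knockout library, though knockout replicate 1 lay just above wild type replicate 2, with a log2 fold change of 1.42 (standard error 0.61, limma adjusted p = 0.639). Reads of gene and copy together came to 3.91, 12.4 and 12.3 RPM in wild type and 20.6, 25.8 and 40.0 RPM in knockout. RPM is recovered reads scaled to the recovered library total, which is an estimate. Knockout was again higher without overlap, with a log2 ratio of 1.72 and an exact permutation p of 0.1 (two-sided, the smallest that 3 against 3 allows). Of the summed reads, Idi1 itself took 13.5% to 44.1% in wild type and 27.5% to 44.3% in knockout. How reads were shared between the gene and its copy by the authors' counting was not tested.

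**Figure D2:**
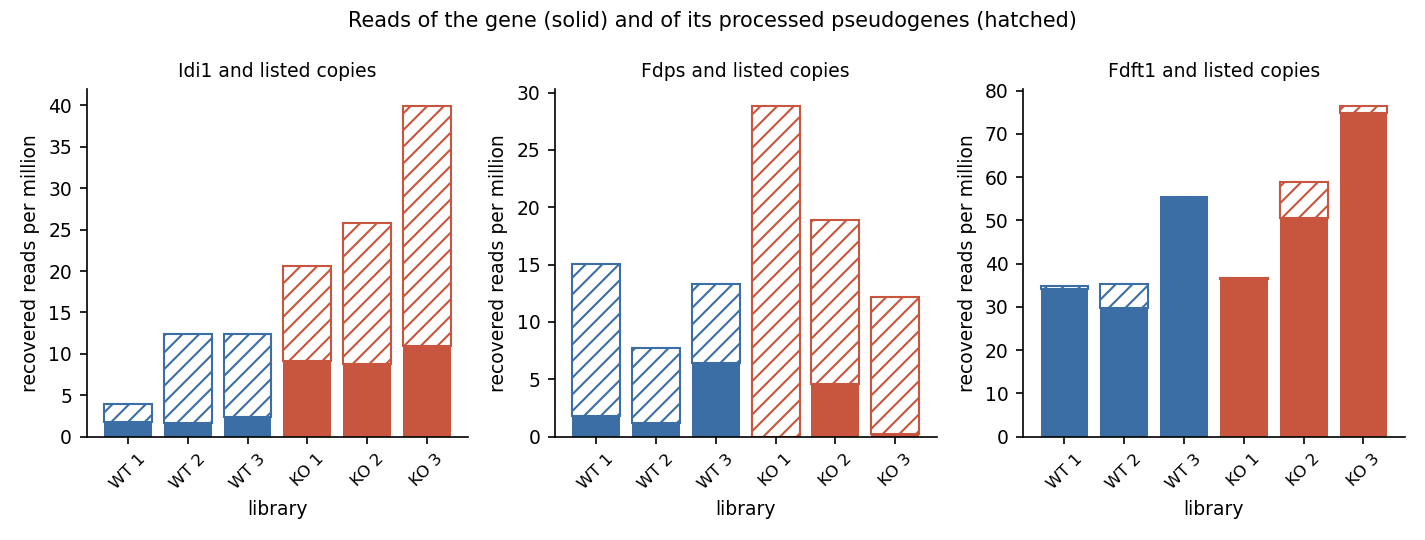
Recovered reads in RPM (vertical axes, from 0) in each library for Idi1, Fdps and Fdft1 (solid) and for their processed pseudogenes listed in the table (hatched). Idi1 with its copy lies at 3.91 to 12.4 in wild type and at 20.6 to 40.0 in knockout, most Fdps-like reads lie in copies in every library, and most Fdft1 reads lie in the gene.

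Fdps encodes farnesyl diphosphate synthase, which joins isoprene units into the precursor of squalene and of prenyl groups. It was the lowest of the 7 in knockout, at 0, 1.21 and 0.0608 RPKM from 0, 89 and 5 reads, and stood at 0.497, 0.324 and 1.78 RPKM from 27, 22 and 111 reads in wild type. The genotypes overlapped, and wild type replicate 3 and knockout replicate 2 stood above the other libraries. The library at 0 allows a level of up to 0.0410 RPKM, that of 3 reads, for counting error only. Fdps (ENSMUSG00000059743, chromosome 3, 89093588 to 89101959, minus strand) shared 26.2% of its words with other transcripts, 23.4% with the overlapping coding model Gm43738, which is not listed, and 12.1% with the pseudogene Gm3571. Gm3571 alone was listed at 1.41 to 11.3 RPKM, above Fdps in every library. With the 3 listed copies Fdps came to 15.0, 7.69 and 13.3 RPM in wild type and 28.9, 18.9 and 12.2 RPM in knockout (log2 ratio 0.70, exact permutation p = 0.3), and Fdps itself took from 0% to 48.1% of these reads. The level of the gene itself is therefore uncertain.

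Fdft1 and Sqle act next to each other. Fdft1, squalene synthase, commits the chain to sterols, and Sqle, squalene epoxidase, catalyses the first oxygen-dependent step. Fdft1 measured 9.44, 8.05 and 15.4 RPKM in wild type against 9.66, 13.3 and 19.7 RPKM in knockout. Only wild type replicate 3 lay inside the knockout range. The log2 fold change was 0.36 (standard error 0.36, limma adjusted p = 0.845, 95% interval -0.49 to 1.21), reaching 0.62 when wild type replicate 3 was left out and 0.10 when knockout replicate 3 was. Fdft1 (ENSMUSG00000021273, chromosome 14, 63145150 to 63179578, minus strand) overlaps the cathepsin gene Ctsb on the other strand, with which 17.2% of its words are shared, so without a known strand setting the reads of both genes cannot be told apart there.

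Sqle measured 6.21, 5.64 and 11.7 RPKM in wild type against 8.69, 8.42 and 5.59 RPKM in knockout. Wild type replicate 3 was again the highest, and knockout replicate 3 the lowest. The means were 7.86 ± 3.36 and 7.57 ± 1.72 RPKM. The log2 fold change was -0.0041 (standard error 0.38, limma adjusted p = 0.999), and the 95% interval of -0.90 to 0.89 leaves room for a difference of either sign. Sqle (ENSMUSG00000022351, chromosome 15, 59315077 to 59331192) shared 0.0358% of its words with other genes, the lowest share of the 7.

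Ordered by level, the wild-type means were 45.6 for Srebf2, 20.2 for Hmgcs1, 14.3 for Insig1, 11.0 for Fdft1, 7.86 for Sqle, 0.868 for Fdps and 0.638 RPKM for Idi1. The ranges of neighbours overlapped except between Srebf2 and Hmgcs1 and between Sqle and Fdps. In knockout the order was 40.5 for Srebf2, 24.9 for Hmgcs1, 14.2 for Fdft1, 14.025 for Insig1, 7.57 for Sqle, 3.06 for Idi1 and 0.423 RPKM for Fdps. Here only Fdft1 with Insig1 and Insig1 with Sqle overlapped. Idi1 and Fdps thus exchanged places between the genotypes, at levels that their copies make uncertain.

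Across libraries, the members had their highest and lowest values in different libraries. Wild type replicate 3 was the highest of the 6 libraries for 4 of the 7 members (57.1%; Hmgcs1, Sqle, Srebf2 and Fdps) and the lowest for none, against 23.6% highest and 26.9% lowest over all genes tested. Knockout replicate 3 was highest for Idi1 and Fdft1 and lowest for Insig1, Srebf2 and Sqle. By Pearson r over the 6 libraries, the pair most alike of 15 was Hmgcs1 and Sqle, with an r of 0.85 and a Spearman rho of 0.83 (r = 0.85 also without the 2 libraries farthest from the median of Hmgcs1). The least alike by the same measure was Insig1 and Fdft1, with an r of -0.59 and a Spearman rho of -0.60 (r = 0.31 without the 2 farthest for Insig1). Other measures gave another order: the highest rho was that of Sqle and Srebf2, at 0.94 (r = 0.67), and without the 2 farthest libraries the highest r was that of Sqle and Idi1, at 0.99 (0.039 over all 6). All pairs share the 6 libraries and their scaling.

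The mean standardised level of the 6 tested members was highest in wild type replicate 3 and knockout replicate 2, at 0.57 and 0.53, and lowest in wild type replicates 2 and 1, at -0.60 and -0.56. The 5 non-member genes closest to this profile over the 6 libraries were 1700010I14Rik (r = 0.99), Map2k2 (0.98), Yipf6 (0.98), Gm20604 (0.98) and Opa1 (0.97). Map2k2, a MAP kinase kinase gene, measured 10.19, 10.04 and 21.62 RPKM in wild type against 18.1, 18.1 and 13.0 RPKM in knockout. The most opposite gene was Gm12963 (r = -0.99), with 2 reads in wild type replicate 3 and 4 in knockout replicate 2. The closest, 1700010I14Rik, was listed at 0 RPKM in wild type replicates 1 and 2, so both correlations rest partly on values near 0. Among all genes tested, 70 had an r above 0.9, and the likeness is given as a description.

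Among the other enzymes of cholesterol synthesis, too, no gene was called. Of 17 listed genes 16 were in the table and tested, 0 passed, 8 lay above 0 and 8 below, and the median log2 fold change was -0.019. Over all genes tested the median was 0.022 and 51.9% lay above 0. Of the 6 tested members, 3 lay above 0 and 3 below. Their median of 0.18 rested on the filter, which kept Idi1 through its knockout values and left out Fdps: it was -0.0041, the value of Sqle, both over all 7 without a filter and over the 5 left by a filter at 5 RPKM. Without wild type replicate 3 the median of the 6 was 0.46, with Hmgcs1, Fdft1 and Idi1 higher in knockout without overlap (13.2% of all genes in those libraries, with 13.6% lower). With any other library left out, no member besides Idi1 separated, with 11.6% to 14.2% of all genes higher and 10.5% to 12.8% lower (12.4% and 10.8% without knockout replicate 3). Idi1 had to stay apart there, since groups without overlap cannot overlap after a library is removed.

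Cyp51, the lanosterol demethylase, was the only one of the 16 (6.25%) whose genotypes did not overlap. Of all genes tested, 7.63% were higher in knockout without overlap. Cyp51 stood at 12.0, 10.9 and 12.3 RPKM in wild type against 13.5, 16.7 and 13.7 RPKM in knockout (log2 fold change 0.30, limma adjusted p = 0.794). Lbr, which also tethers chromatin at the nuclear envelope, had the highest level of the list at 18.9 to 34.8 RPKM and a log2 fold change of -0.13.

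**Figure D3:**
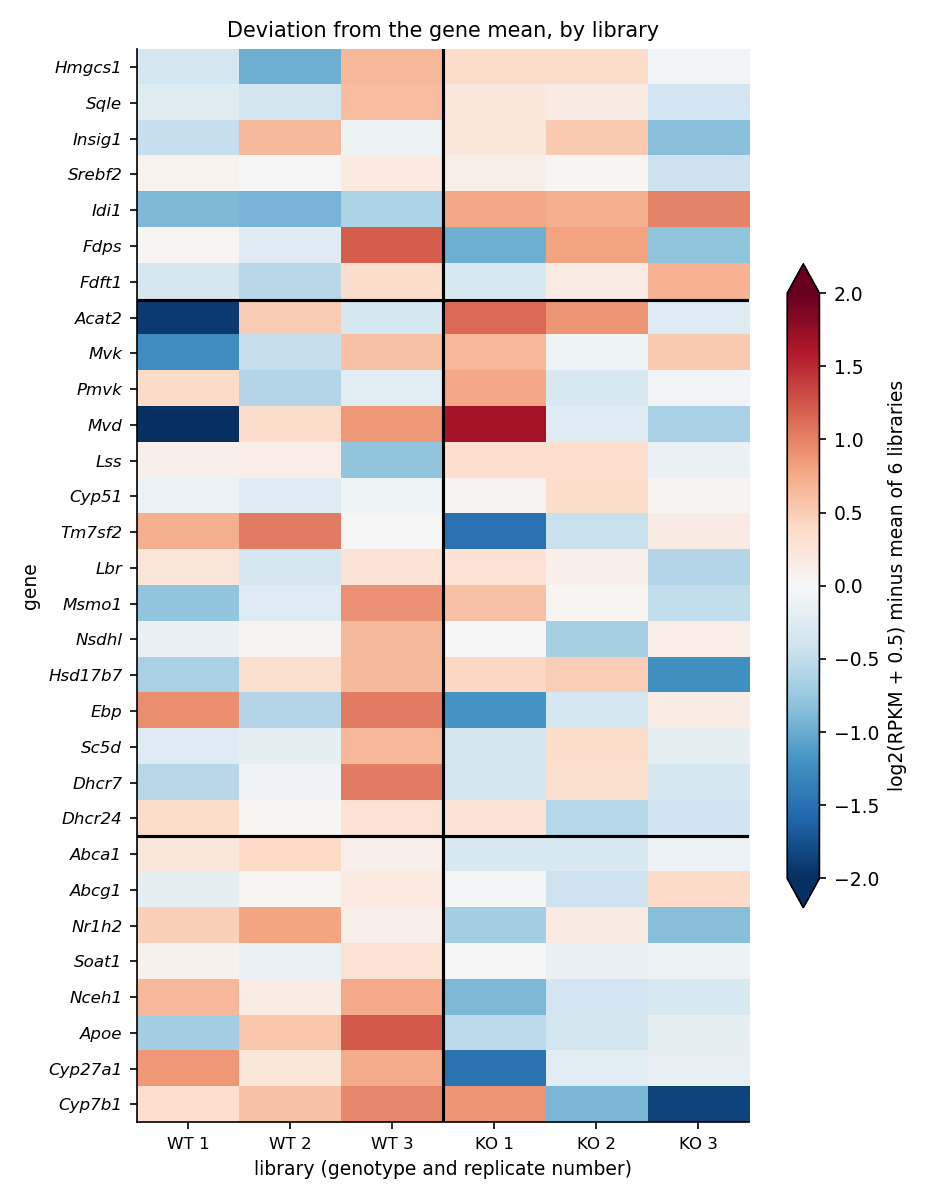
Colour gives each gene's log2(RPKM + 0.5) in a library minus its mean over the 6 libraries (red above, blue below, clipped at 2) for the 7 genes, 15 other synthesis enzymes and the 8 efflux, esterification and LXR genes, separated by lines. Idi1 and Cyp51 separate the genotypes upward and Abca1, Nceh1 and Cyp27a1 downward, while wild type replicate 3 is high for Hmgcs1, Sqle and several later enzymes.

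Among 10 other genes that control SREBP, none passed, none separated the genotypes, and the median log2 fold change was 0.032. Pgrmc1, a heme-binding membrane protein gene with the highest level of the list, stood at 42.2 to 44.6 RPKM in wild type against 41.4 to 63.6 RPKM in knockout.

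Cholesterol uptake and traffic genes (10 of 12 tested, 0 passed, median -0.063) went both ways. Of the 10, 1 was higher in knockout without overlap (10%) and 2 lower (20%), against 7.63% and 6.87% of all genes tested. Stard4, a sterol carrier gene, was higher in every knockout library, at 17.7 to 24.7 against 10.3 to 15.4 RPKM (log2 fold change 0.61, limma adjusted p = 0.633).

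Lipa, the lysosomal acid lipase that frees cholesterol from lipoproteins taken up by the cell, was lower in every knockout library, at 5.90 to 7.40 against 8.97 to 12.0 RPKM (log2 fold change -0.71, limma adjusted p = 0.626). Npc1, which carries that cholesterol out of the lysosome, was also lower, at 5.76 to 7.16 against 7.84 to 8.35 RPKM, a log2 fold change of -0.29. Mylip, a ubiquitin ligase gene, and Npc2, the partner of NPC1, had the highest levels of the list and overlapped, with log2 fold changes of -0.49 and 0.17.

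The efflux, esterification and LXR genes lay lower in knockout as a list. Of 10 listed, 8 were in the table and tested, all 8 lay below 0, the median log2 fold change was -0.83, and 0 passed. Over all genes tested, 51.9% lay above 0. The 8 differed in size: Abcg1 and Soat1, named after their values were seen, lay near 0, at -0.040 and -0.16. Abcg1 stood at 23.9 ± 3.07 RPKM in wild type against 23.7 ± 6.72 RPKM in knockout. Nceh1, which hydrolyses cholesteryl esters, measured 42.9, 29.9 and 46.2 RPKM in wild type against 14.3, 20.7 and 21.8 RPKM in knockout. The log2 fold change was -1.04 (standard error 0.26, unadjusted p = 0.00420, limma adjusted p = 0.429), and the authors' deposited table lists Nceh1 at -1.05 on the log2 scale (adjusted p = 0.0702). Abca1, a cholesterol exporter gene, measured 9.10, 10.3 and 8.35 RPKM in wild type against 6.13, 6.19 and 7.08 RPKM in knockout (log2 fold change -0.49, limma adjusted p = 0.741). Cyp27a1, which makes an oxysterol, stood at 5.70, 3.48 and 5.20 RPKM against 0.714, 2.45 and 2.54 RPKM (log2 fold change -1.23, limma adjusted p = 0.643).

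These 3 genes, 37.5% of the 8, were lower in knockout without overlap, where 6.87% of all genes tested were. Apoe, the lipoprotein gene with the highest level of the list, measured 28.7, 68.2 and 109 RPKM in wild type against 31.4, 35.5 and 40.0 RPKM in knockout, so the wild-type range enclosed the knockout range. Its log2 fold change was -0.75, and -0.32 without wild type replicate 3. Without each library in turn the list median ranged from -0.94 to -0.68. Abca1, Nceh1 and Cyp27a1 necessarily stayed apart each time, since groups without overlap cannot overlap after a library is removed. In those settings 10.5% to 13.6% of all genes were lower without overlap. Without knockout replicate 3 (10.8%) these 3 were the only ones of the list. With any other library left out, 4 of the 8 (50%) were lower without overlap, and the added gene was not the same each time. The list differs from the other lists in count and median only as a description, since the difference between lists was not tested.

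**Figure D4:**
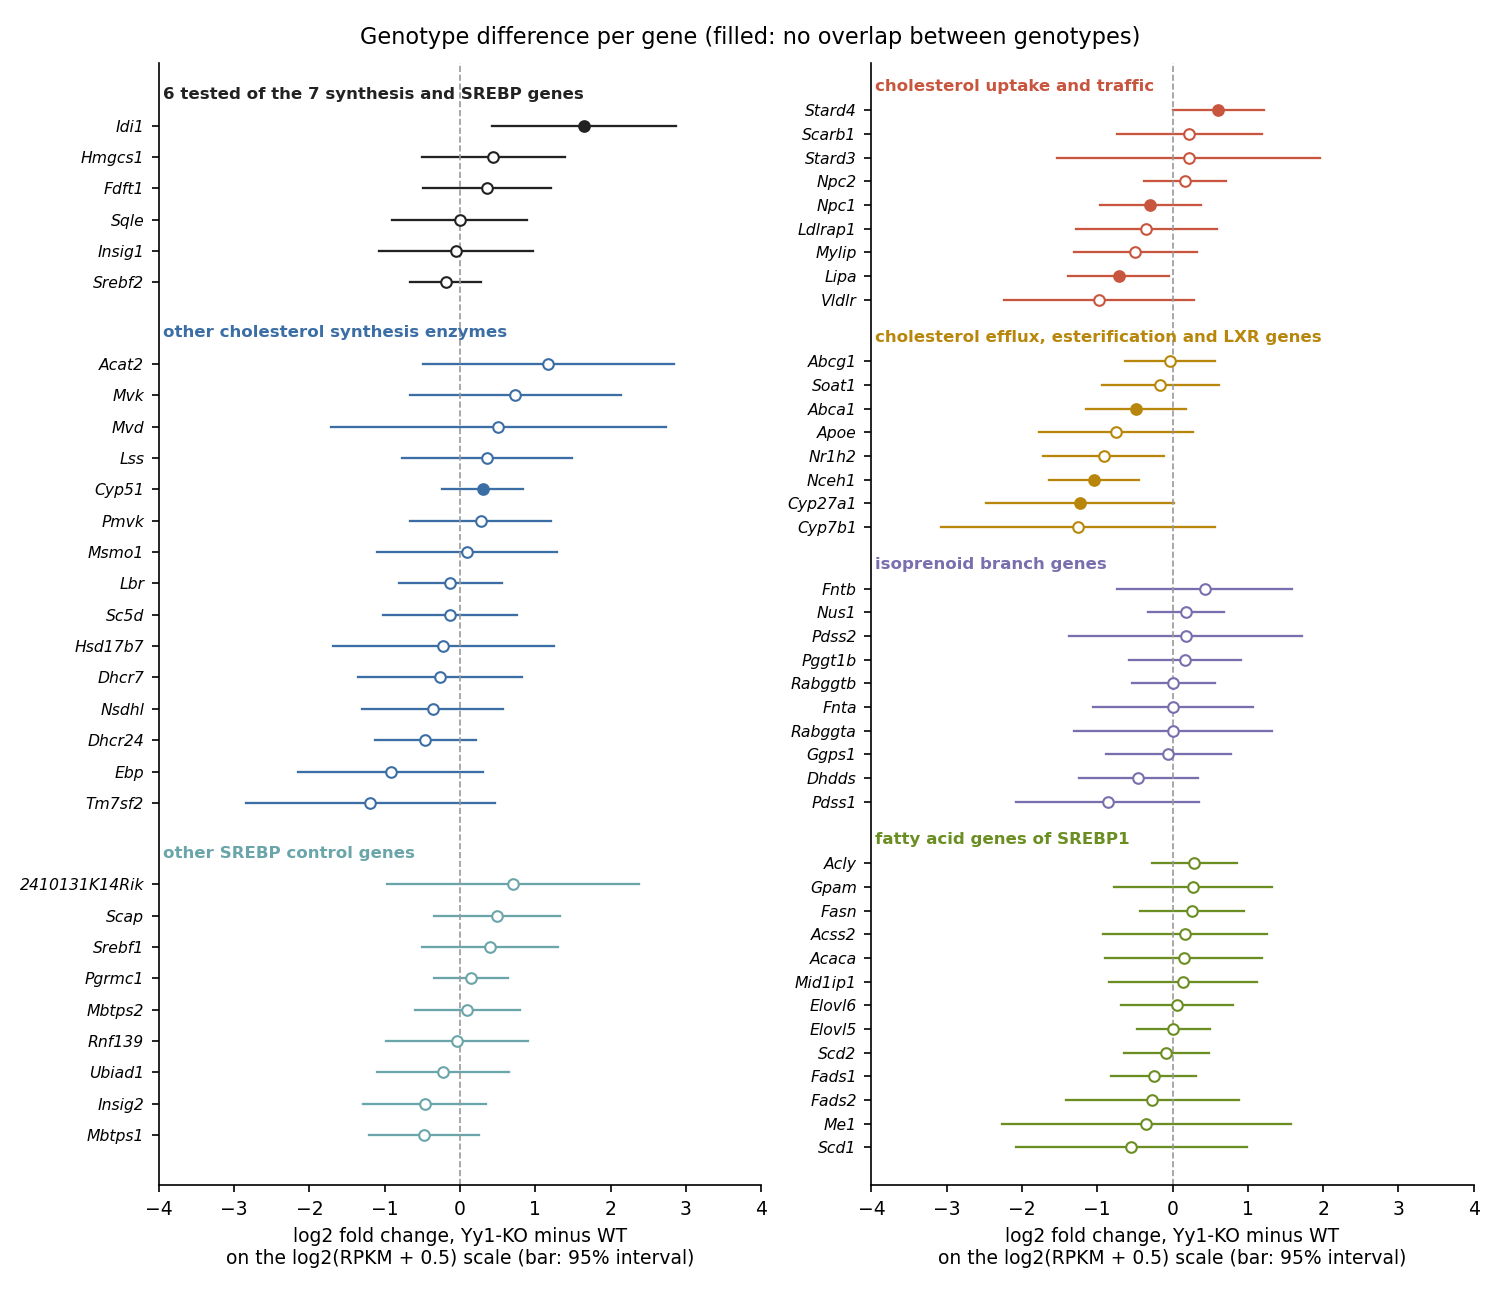
Knockout minus wild-type difference in log2(RPKM + 0.5) with its 95% interval (horizontal axis) for the 6 tested members and the tested genes of the other lists that are reported here; filled points mark genes whose genotypes do not overlap. Idi1 lies at 1.65, the other 5 members between -0.19 and 0.44, and all 8 efflux, esterification and LXR genes lie below 0.

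Branches that share the pathway's intermediates or its regulators were near 0 in their medians. The 10 isoprenoid branch genes, which use farnesyl and geranylgeranyl groups, had a median log2 fold change of 0.0072 with 0 passing and no separation between genotypes. Rabggtb and Fnta, prenyltransferase subunit genes with the highest levels there, stood at 46.1 ± 8.45 against 46.6 ± 11.2 RPKM and at 35.5 ± 14.4 against 36.9 ± 18.4 RPKM. The 13 tested fatty acid genes of SREBP1 had a median of 0.058, again with 0 passing and no separation. Scd2, a fatty acid desaturase gene, stood at 69.8 ± 21.9 against 63.6 ± 2.55 RPKM and Fads1, another, at 42.1 ± 6.35 against 35.7 ± 8.61 RPKM.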

How the data were processed

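Subread, featureCounts, edgeR, limma and the mm10 genome are named, without versions, per the submitters' processing notes. The header of the deposited table names no unit, and its 6 library columns behaved as RPKM by the authors: multiplied by GENCODE M21 exonic length, 71.8% of 15465 genes fell on whole reads in all 6 libraries (tolerance 0.02 reads). The other genes, Hmgcs1, Srebf2 and Fdft1 among them, have estimated reads. Per the file headers, the authors also deposited log2 fold changes with raw and adjusted p-values.

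Genotypes were compared on log2(RPKM + 0.5) by limma (version 3.58.1, R 4.3.3), with a variance trend, genotype as the only term and all 6 libraries, for genes reaching 1 RPKM in 3 or more of them. The fits were tested on simulated data. Alternatives changed the pseudocount, filter, scaling, variance trend and replicate block, replaced limma by limma-voom on recovered reads, and left out each library. Sequence sharing was counted in words of 50 bases over M21 transcripts. Lists are described by counts and medians, with no set test.

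The members and lists were chosen with earlier results of these data known. Named are the members, Yy1, the genes of each pathway list without overlap between genotypes or with one of its 2 highest mean levels, and the 5 genes most like and the 1 least like the members' profile. Cell type and cell cycle lists served as checks. They are given as sums and, outside this rule, as single genes such as Cd68 and Lyz2. Mki67 and Kit were also followed singly outside it. A few genes that this rule names are not reported here and are left out of the figures, while the counts, sums and medians of the lists include them.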

Additional observations from a re-analysis of the deposited data

How the results depend on the processing

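Each result was recomputed under up to 15 other settings, 6 of which left out a library. No member was called under any of them, and of 28 genes followed singly only Mki67 passed under one, limma-voom on recovered reads (log2 fold change 1.66). That fit called 6 genes in all. Leaving out a library gave 0 to 1 calls, Gm23130 without wild type replicate 1 and Gm24455 without wild type replicate 2, both named after their values were seen. With the replicate block, which treats equal replicate numbers as pairs, 0 genes were called and 1040 had an unadjusted p under 0.05. In their deviations from the group means, libraries with the same number correlated by 0.0152, 0.0593 and 0.0467. Those with different numbers correlated by -0.0758 to 0.0353. So few values cannot settle whether equal numbers mark pairs. The block changed no call.

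Without each library in turn, the members' median log2 fold change ranged from 0.077 to 0.46, that of the other synthesis enzymes from -0.29 to 0.34, that of the SREBP control genes from -0.054 to 0.080 and that of the efflux, esterification and LXR genes from -0.94 to -0.68. With the filter at 5 RPKM, which tests fewer genes, the medians were -0.0041 for the members, -0.13 for the other synthesis enzymes, -0.035 for SREBP control, -0.29 for uptake and traffic and -0.62 for efflux, and limma-voom gave 0.091 for SREBP control. With no filter they were -0.0041 over all 7 members and -0.14 for uptake and traffic. The cause of the other moves was not tested.

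Genes near 0 turned sign. Sqle was at 0.0037 under quantile normalization and 0.041 in limma-voom, and ranged from -0.19 to 0.31 over the left-out libraries; Insig1 ranged from -0.33 to 0.35. Fnta was at -0.024 under quantile normalization and -0.018 with libraries centred on their median, and ranged from -0.35 to 0.44. Rabggtb was at -0.0064 and -0.014 under these settings and ranged from -0.18 to 0.13. The ranges were -0.33 to 0.13 for Lbr, -0.053 to 0.26 for Pgrmc1 and -0.32 to 0.14 for Scd2. The fold change of Idi1 ranged from 1.56 to 1.74 over the left-out libraries and from 1.31 with a pseudocount of 1 RPKM to 2.32 in limma-voom, with adjusted p-values from 0.175 (no variance trend) to 0.896, and the filter at 5 RPKM removed it. Summing reads with the listed copies, added after the values were seen, gave 1.72 for Idi1 and 0.42 for Fdft1. Idi1 and Fdps rest on at most 239 reads in a library, where counting error is largest.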
